A study of Mus musculus with 6 samples.

Results

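Microtubules are hollow polymers of tubulin, a dimer of an alpha and a beta subunit, and 9 genes that encode such subunits are described here, of 11339 genes measured in the mouse retina: the beta isotypes *Tubb2a*, *Tubb2b*, *Tubb3*, *Tubb4a*, *Tubb4b* and *Tubb5*, and the alpha isotypes *Tuba1a*, *Tuba1b* and *Tuba4a*. The 9 genes were chosen by family name and on the measured difference between genotypes in these same samples, in which *Tubb2b* is among the largest decreases. Their differences between genotypes are therefore given as a description, with no test. RNA was sequenced from whole retinas at postnatal day 14 (P14) in 3 *Mll1KO* samples, of the genotype MLL1 fl/fl, Chx10-Cre, and in 3 wild type (WT) samples, all of the strain C57Bl6/J. The Cre recombinase acts in retinal progenitor cells and removes a floxed part of *Mll1* (current symbol *Kmt2a*), which encodes a histone H3 lysine methyltransferase, and each sample was pooled from 2 retinas. The WT samples are not labelled as carrying the floxed alleles or the Cre transgene, so the comparison covers all of these differences together. Values are RPKM, reads scaled to gene length and to the library total. Whole reads could be recovered from them, with totals of 23836033, 19777205 and 19323512 for the WT libraries and 23348923, 19855963 and 17961097 for the *Mll1KO* libraries, each in the order a, b, c that is used throughout. The 9 genes took 0.239%, 0.244% and 0.249% of these reads in WT and 0.191%, 0.188% and 0.182% in *Mll1KO*.

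Tubulin isotypes are close copies that differ mostly in the acidic tail at the end of the protein, where enzymes add and remove glutamates and a tyrosine. Neurons express several isotypes at once: *Tubb3* is widely used as a neuron marker, *Tuba1a* and *Tubb2b* are abundant in young neurons and their mutations cause malformations of the human cortex, *Tubb4b* is a major beta tubulin of cilia, and *Tubb5* is broadly expressed. In the retina microtubules fill the axons of ganglion cells, the dendrites and axons of interneurons, and the connecting cilium of photoreceptors.

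The targeted gene was measured at 36.1, 36.9 and 34.6 RPKM in the WT samples and at 22.9, 20.4 and 22.3 RPKM in the *Mll1KO* samples. *Kmt2a* was thus lower in each *Mll1KO* sample than in any WT sample (limma adjusted p = 2.77e-05, log2 fold change -0.69 with a standard error of 0.05), and since only part of the gene is floxed the value does not measure excision alone. The tissue was checked with markers of rods, the most numerous cells of the mouse retina: 19 of 19 listed rod genes were present, with a mean summed level of 19660 RPKM in WT and 24080 RPKM in *Mll1KO*.

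The beta isotype with the largest difference among the 9 genes was *Tubb2b*. Its level was 27.7, 33.0 and 29.1 RPKM in WT and 11.1, 12.1 and 12.1 RPKM in *Mll1KO*. The WT samples lay well above the *Mll1KO* samples, and the lowest WT value was more than 2 times the highest *Mll1KO* value. The mean was 29.9 ± 2.72 RPKM (SD, n = 3) in WT and 11.8 ± 0.552 RPKM (SD, n = 3) in *Mll1KO*, or 39.4% of the WT mean. On the log2(RPKM + 1) scale, which understates changes of weakly expressed genes, the difference was -1.27 (standard error 0.06), rank 8 from the lowest of 11339 genes. Between 419 and 1270 reads stood behind each value, and the fewest reads give a counting error of 4.89%. In whole retina, fewer cells that express a gene and less of its RNA per cell cannot be told apart, and this holds for every value below.

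*Tubb2a*, the closest relative of *Tubb2b*, was expressed at a higher level, with 147.7, 160.5 and 166.5 RPKM in WT and 123.4, 125.4 and 124.0 RPKM in *Mll1KO*. All *Mll1KO* values were below all WT values, at 78.5% of the WT mean (log2 difference -0.34, standard error 0.05). The ratio of *Tubb2a* to *Tubb2b* was 5.33, 4.87 and 5.73 in WT and 11.1, 10.4 and 10.2 in *Mll1KO*. Within this pair the balance therefore lay further towards *Tubb2a* in each *Mll1KO* sample than in any WT sample. The summed RPKM of both genes, which depends less on how reads were divided between them, was 175.4, 193.5 and 195.5 in WT and 134.5, 137.4 and 136.1 in *Mll1KO*, or 72.3% of the WT mean.

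*Tubb3*, the neuronal isotype, was at 133.4, 137.9 and 143.6 RPKM in WT and at 108.0, 117.6 and 101.3 RPKM in *Mll1KO*. The groups did not overlap, and the *Mll1KO* mean was 78.8% of WT (log2 difference -0.34, standard error 0.06). *Tubb4a*, a beta isotype abundant in the nervous system, was at 235.1, 216.6 and 218.3 RPKM in WT and at 177.2, 161.4 and 169.5 RPKM in *Mll1KO*, or 75.8% of WT (log2 difference -0.40, standard error 0.05). *Tubb5*, the broadly expressed isotype, was at 229.0, 231.2 and 231.4 RPKM in WT and at 176.7, 173.9 and 165.0 RPKM in *Mll1KO*. Its WT samples were the closest together of the 9 genes, with a coefficient of variation of 0.581%, and its *Mll1KO* mean was 74.5% of WT (log2 difference -0.42, standard error 0.04). *Tubb4b*, the beta isotype known from cilia, was at 41.8, 44.4 and 46.7 RPKM in WT and at 41.3, 38.0 and 36.6 RPKM in *Mll1KO*. Its groups were separated only narrowly, by WT sample a and *Mll1KO* sample a, and the *Mll1KO* mean was 87.3% of WT (log2 difference -0.19, standard error 0.06).

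*Tuba1a*, the alpha isotype of young neurons, was at 205.9, 238.5 and 243.5 RPKM in WT and at 166.8, 162.8 and 162.6 RPKM in *Mll1KO*. The *Mll1KO* samples lay close together below all WT samples, of which sample a was lower than the others, and their mean was 71.6% of WT (log2 difference -0.48, standard error 0.06). *Tuba1b*, a broadly expressed alpha isotype, was at 26.2, 24.7 and 29.6 RPKM in WT and at 25.7, 23.0 and 23.5 RPKM in *Mll1KO*. It was the only one of the 9 genes whose groups overlapped, with a log2 difference of -0.15 (standard error 0.07). The difference was -0.08 without WT sample c and -0.43 after rescaling each library to the same rod gene total. *Tuba4a*, whose protein lacks the final tyrosine that other alpha tubulins carry, was at 23.7, 22.5 and 24.7 RPKM in WT and at 25.94, 30.05 and 25.98 RPKM in *Mll1KO*. It was the only one of the 9 with a higher mean in *Mll1KO*, at 115.7% of WT (log2 difference 0.20, standard error 0.06). Without *Mll1KO* sample b the difference was 0.13. Rescaling by the rod gene total, which shifts all genes together, gave -0.08. Relative to the median of all genes *Tuba4a* was at 0.23 as deposited and 0.21 after that rescaling.

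**Figure D1:**
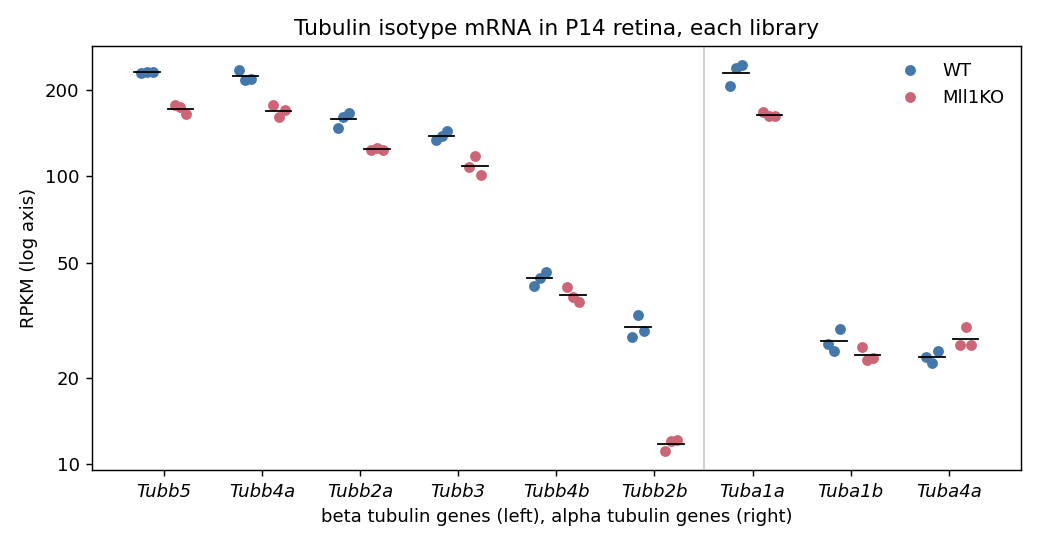
RPKM of each isotype (log axis) in every library, WT in blue and *Mll1KO* in red, with a black bar at the mean of 3 libraries. *Tubb2b* shows the widest gap, from 29.9 to 11.8 RPKM on average, and *Tuba4a* is the only gene with the higher mean in *Mll1KO*, 27.3 against 23.6 RPKM, with a log2 difference relative to the median of all genes of 0.23, and of 0.21 after rescaling each library to the same rod gene total, where the difference itself was -0.08.

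In 7 of the 9 genes all *Mll1KO* values were below all WT values, in 1 all were above, and in 1 they overlapped. Over all 11339 genes, 26.5% were separated downwards and 14.6% upwards in the same way, and nothing is read from the counts of the 9 genes since they were chosen on this contrast. Their median log2 difference was -0.34 against -0.03 over all genes. After the rescaling by rod genes the median was -0.64 for the 9 genes and -0.29 over all genes, and *Tubb4b* was at -0.48. Relative to the median of all genes, *Tubb2b* was at -1.24 without and -1.26 with that scaling, *Tubb5* at -0.39 and -0.43, *Tuba1a* at -0.45 and -0.48, and *Tuba4a* at 0.23 and 0.21. Subtracting the median of all genes largely cancels a scaling factor, so these values can hardly differ between scalings. Taken this way, 8 of the 9 genes were below the median of all genes. A median has as many genes below it as above it, and nothing is read from this count either.

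Among the beta isotypes the order of levels per length was the same in both genotypes: *Tubb5*, *Tubb4a*, *Tubb2a*, *Tubb3*, *Tubb4b* and *Tubb2b*. *Tubb5* and *Tubb4a* overlapped in RPKM in WT and in *Mll1KO*, so their order is not resolved, while each of the other neighbours in the order was separated in both genotypes. *Tuba1a* was the highest alpha isotype by a wide margin, at 229.3 RPKM in WT, a level comparable with *Tubb5*. *Tuba1b* and *Tuba4a* stood in opposite order in the genotypes, with means of 26.8 and 23.6 RPKM in WT and 24.0 and 27.3 RPKM in *Mll1KO*.

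Shares within a library do not depend on how libraries are scaled to each other. *Tubb2b* made up 3.40%, 4.0% and 3.48% of the summed beta tubulin RPKM in WT and 1.75%, 1.92% and 1.99% in *Mll1KO*. The groups were apart, with a difference of -1.74 percentage points between means of 3.63% ± 0.327 and 1.89% ± 0.127 (SD, n = 3). The share of *Tubb4b* differed in the other direction, with means of 5.37% in WT and 6.18% in *Mll1KO*, again without overlap. The remaining beta isotypes overlapped between genotypes: the mean share of *Tubb5* was 28.0% in WT and 27.5% in *Mll1KO*, that of *Tubb4a* 27.1% in both, that of *Tubb2a* 19.2% and 19.9%, and that of *Tubb3* 16.8% and 17.4%. Thus the summed beta tubulin level was lower while its makeup was similar apart from the 2 least abundant isotypes. With *Tubb6*, a further beta tubulin gene, added to the sum, the share of *Tubb5* did not overlap, with means of 27.8% in WT and 27.4% in *Mll1KO*.

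Among the alpha isotypes *Tuba1a* made up 80.5%, 83.5% and 81.8% of the summed RPKM in WT and 76.4%, 75.4% and 76.7% in *Mll1KO*. The difference of the means was -5.76 percentage points and the groups did not overlap. The share of *Tuba4a* was 9.26%, 7.87% and 8.29% in WT and 11.9%, 13.9% and 12.3% in *Mll1KO*. The share of *Tuba1b* was higher in *Mll1KO* as well, 11.2% against 9.61% on average, although its level was not, and in recovered reads its share overlapped between genotypes.

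The summed RPKM of the 6 beta isotypes was 814.7, 823.6 and 835.6 in WT and 637.6, 628.4 and 608.6 in *Mll1KO*. This is 75.8% of WT, with a log2 ratio of -0.40, and leaving *Tubb2b* out of the sum gives 77.1%. The summed RPKM of the 3 alpha isotypes was 255.8, 285.7 and 297.7 in WT and 218.4, 215.8 and 212.0 in *Mll1KO*. At 77.0% of WT and a log2 ratio of -0.38 the alpha sum differed to a similar degree as the beta sum, and in both the genotypes did not overlap.

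**Figure D2:**
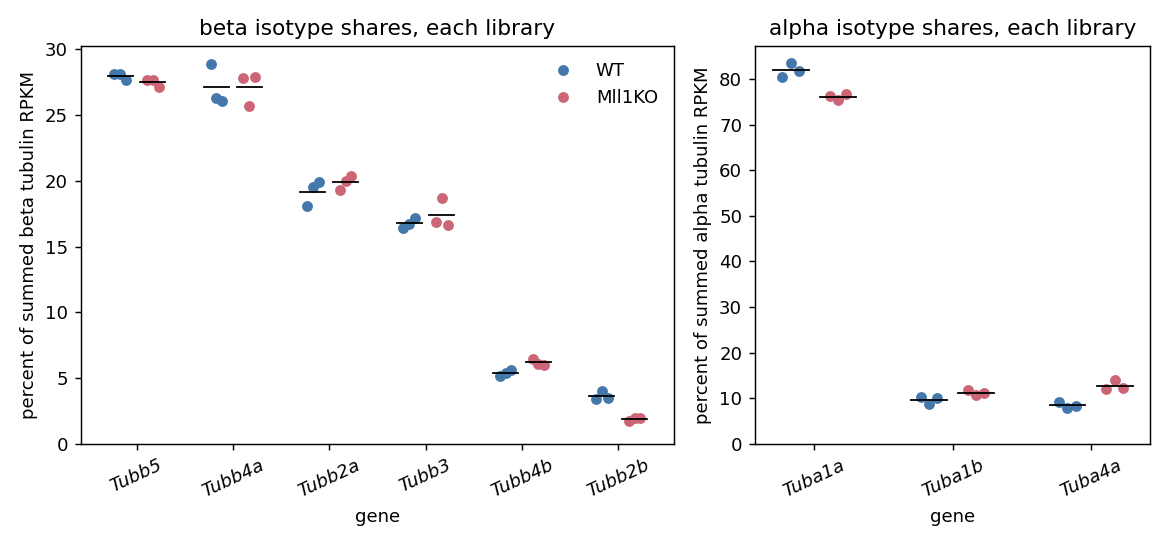
Share of each isotype in the summed RPKM of its family (percent, axis from 0) in every library, WT in blue and *Mll1KO* in red, with a black bar at the mean of 3 libraries. The share of *Tubb2b* is 3.63% in WT and 1.89% in *Mll1KO*, and that of *Tuba1a* 81.9% and 76.2%.

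Because isotypes are close copies, a read of 50 bases can match more than 1 gene. The transcripts of GENCODE vM21, an annotation of the mouse genome build GRCm38, were cut into all stretches of 50 bases, and each stretch was looked up in the transcripts of every other gene on both strands. *Tubb3* shared 0 of its 1867 stretches, *Tubb5* 0.1% and *Tubb4a* 0.2%, so reads of these genes are nearly always specific. *Tubb2a* shared 49.6% and *Tubb2b* 36.9% of their stretches, mostly with each other: 712 stretches are common to both, and a further gene, the pseudogene *Tubb2a-ps2*, holds 16.2% of the stretches of *Tubb2b*. *Tubb4b* shared 41.3%, chiefly with its pseudogene *Tubb4b-ps1* (32.4%). *Tuba1a* shared 75.5% and *Tuba1b* 75.1%, with *Tuba1c* as the most frequent partner (46.9% and 53.6%), a gene that is not listed among the 11339. *Tuba4a* shared 35.4%, nearly all with *Stk16*, a gene on the opposite strand (34.6%). How reads with several matches were counted is not given in the sources used here, so the values of *Tubb2a*, *Tubb2b*, *Tubb4b*, *Tuba1a*, *Tuba1b* and *Tuba4a* are uncertain to that extent.

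**Figure D3:**
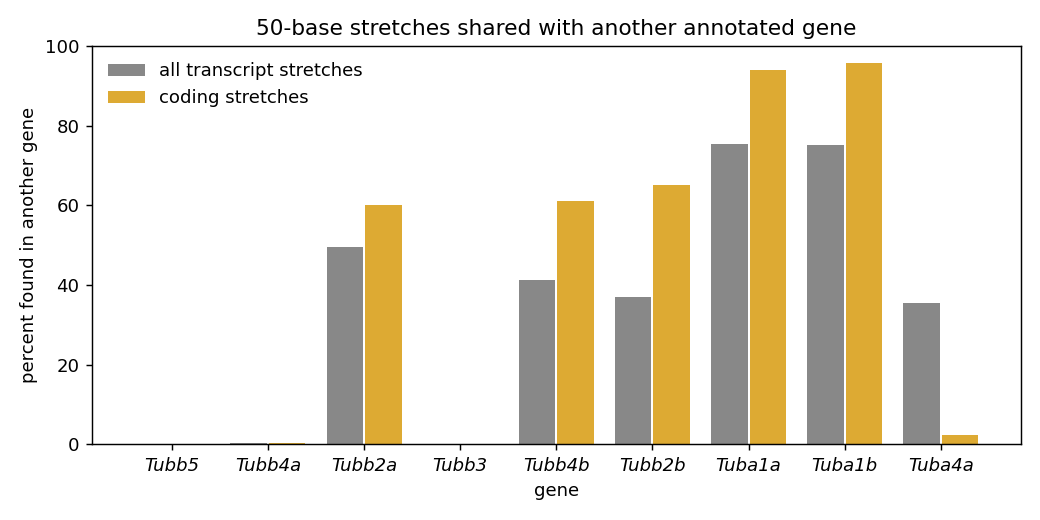
Percent of the 50-base stretches of each gene that also occur in another annotated gene, for all its transcripts in grey and for its coding sequence in yellow (axis from 0 to 100). *Tuba1a* and *Tuba1b* share 93.9% and 95.6% of their coding stretches, whereas *Tubb3* shares 0.

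*Tubb2a* and *Tubb2b* are identical at 96.5% of aligned coding bases and differ at 47 positions, against 83.5% identity between *Tubb2a* and *Tubb3*. *Tuba1a* and *Tuba1b* are identical at 98.3% and differ at 23 positions, against 84.7% between *Tuba1a* and *Tuba4a*. The last 60 coding bases of the beta isotypes from GENCODE vM21, stop codon included, encode the acidic tail and are shown because they hold bases at which the isotypes can be told apart. Capitals mark bases that differ from *Tubb2b* in the other beta isotypes and from *Tubb2a* in *Tubb2b*, each in an alignment of the coding sequences. Of the 60 bases 3 differ within the *Tubb2a* and *Tubb2b* pair, while *Tubb3* differs from *Tubb2b* at 28, *Tubb4b* at 17, *Tubb5* at 16 and *Tubb4a* at 11.
Tubb2b: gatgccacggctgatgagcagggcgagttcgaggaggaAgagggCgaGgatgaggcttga
Tubb2a: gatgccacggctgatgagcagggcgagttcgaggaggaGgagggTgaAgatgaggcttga
Tubb3: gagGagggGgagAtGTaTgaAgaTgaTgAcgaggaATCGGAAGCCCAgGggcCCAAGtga
Tubb4a: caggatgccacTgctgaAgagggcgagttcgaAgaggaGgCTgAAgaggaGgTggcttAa
Tubb4b: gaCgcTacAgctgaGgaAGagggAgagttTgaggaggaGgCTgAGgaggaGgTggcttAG
Tubb5: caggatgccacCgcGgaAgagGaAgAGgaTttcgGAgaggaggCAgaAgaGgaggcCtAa

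The start of the coding sequence is shared in another sense. Cells lower tubulin mRNA when free tubulin is plentiful, by recognising the first residues of the growing tubulin chain on the ribosome through TTC5. The first 12 coding bases encode this stretch and are shown for all 9 genes, in lower case with no base marked. *Tuba1a* and *Tuba1b* have the same 12 bases, as do *Tubb3* and *Tubb4b*. *Ttc5* itself, added to the named genes after the data were seen, had a mean of 29.3 RPKM in WT and 27.6 RPKM in *Mll1KO* and was not past the threshold (log2 fold change -0.08, limma adjusted p = 0.295).
Tubb2a: atgcgcgagatc
Tubb2b: atgcgagagatc
Tubb3: atgagggagatc
Tubb4a: atgcgggaaatc
Tubb4b: atgagggagatc
Tubb5: atgagggaaatc
Tuba1a: atgcgtgagtgc
Tuba1b: atgcgtgagtgc
Tuba4a: atgcgcgagtgc

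When each RPKM was divided by the share of stretches that occur in no other gene, as if every shared read had been dropped, the levels moved, while the ratio between genotypes of any single gene did not, since the same divisor applies to both. The log2 ratio of the beta sum was -0.40 with and without the correction, and that of the alpha sum -0.42 with and -0.38 without it, while the shares differed. On this scale *Tubb2a* had the highest beta level, 314 against 231 for *Tubb5* in WT, and *Tuba1a* reached 937. The share of *Tubb2b* was then 4.61% in WT and 2.39% in *Mll1KO*, and that of *Tuba1a* 86.6% and 82.9%. The order by level given for RPKM as deposited thus changes for *Tubb2a*, and *Tuba1b* was then above *Tuba4a* in both genotypes, at 108 against 36.6 in WT and 96.5 against 42.3 in *Mll1KO*.

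The gene positions bear on the counts too. In GRCm38 *Tubb2a* (ENSMUSG00000058672) lies on the minus strand at chr13:34074274-34078007 and *Tubb2b* (ENSMUSG00000045136) on the same strand at chr13:34126748-34130466. *Tuba1a* (ENSMUSG00000072235; chr15:98949837-98953703) and *Tuba1b* (ENSMUSG00000023004; chr15:98931425-98934565) are neighbours on the minus strand as well. Of their exon bases 26.2% and 27.4% lie in exons of other genes, among them *Gm49450* on the same strand, and 5.8% of those of *Tubb4b* lie in *Fam166a* on the opposite strand. *Tuba4a* (ENSMUSG00000026202; chr1:75214228-75219865, minus strand) has 37.3% of its exon bases inside exons of *Stk16* on the opposite strand. Whether reads were counted by strand is not given in the sources used here, so reads of *Tuba4a* and *Stk16* may not be separable there. *Stk16*, a kinase gene added to the named genes after the data were seen, was at 15.0, 14.2 and 14.2 RPKM in WT and 14.5, 12.4 and 13.8 RPKM in *Mll1KO*, with a log2 fold change of -0.09 (limma adjusted p = 0.306). *Tubb2b* has 2294 annotated exon bases, but its RPKM was made with a length of 1922 bases, and *Tubb2a*, with 1610 annotated bases, with 1584. *Tuba1a*, with 1803 annotated bases, was given 1647, so the gene models behind the RPKM differ from vM21 for these 3 genes, while the other 6 lengths match.

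RefSeq promoter sequences (GRCm38.p6) were matched for 8 of the 9 genes; *Tubb2b* had no entry. CG dinucleotides in the 250 bases before the RefSeq start of transcription numbered from 10 in *Tubb5* to 35 in *Tuba1b*. The median over 32851 promoters of the same length was 6. The windows of *Tuba1a*, *Tuba1b*, *Tubb3*, *Tubb4a* and *Tubb5* lie partly inside the GENCODE gene, and that of *Tuba4a* lies wholly inside it. The letters TATAAA, searched on both strands, were found in *Tubb2a* and in none of the other 7, and in 12.4% of all promoters. The letters CCAAT were found in *Tuba1a*, *Tubb3*, *Tubb4b* and *Tubb5* (33.8% of all promoters), and GGGCGG in all but *Tubb4a* and *Tubb5* (32.7% of all promoters). These matches describe the letters only. The windows of *Tubb2a* (chr13:34078009-34078258, minus strand), the closest relative of *Tubb2b*, and of *Tubb4b* (chr2:25224703-25224952, minus strand), whose share differed in the direction opposite to that of *Tubb2b*, lie outside the GENCODE gene and are shown with each CG in capitals.
Tubb2a: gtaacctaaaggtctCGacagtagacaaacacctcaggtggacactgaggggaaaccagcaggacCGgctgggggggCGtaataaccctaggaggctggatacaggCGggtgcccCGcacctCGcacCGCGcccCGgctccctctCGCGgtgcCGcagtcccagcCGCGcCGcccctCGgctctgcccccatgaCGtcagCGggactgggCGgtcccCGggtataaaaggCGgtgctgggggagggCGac
Tubb4b: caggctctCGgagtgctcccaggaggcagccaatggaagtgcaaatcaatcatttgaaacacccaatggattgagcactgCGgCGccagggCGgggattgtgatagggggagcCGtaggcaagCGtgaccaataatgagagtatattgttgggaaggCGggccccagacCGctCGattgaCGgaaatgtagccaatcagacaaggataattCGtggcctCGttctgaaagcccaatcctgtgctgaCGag

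The 5 other genes whose levels ran most like *Tubb2b* over the 6 libraries were *Nfib*, a transcription factor gene (Pearson r = 0.9994 in log2(RPKM + 1)), *Slit1*, an axon guidance ligand (0.9981), *Gm9752* (0.9980), *Fnbp1l*, which encodes an F-BAR protein that acts on membranes and actin (0.9979), and *Wnk4*, a kinase gene (0.9967). A coefficient over libraries of both genotypes includes the difference between genotypes, so it is a description of likeness only. All 5 had smaller differences than *Tubb2b*, from 61.7% of WT for *Wnk4* to 73.3% for *Nfib*.

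Genes that act on tubulin, and tubulin genes other than the 9 isotypes, were followed together in lists of partners. Limma's test was adjusted over all 11339 genes at a threshold of 0.05. Of 99 partner genes 84 were listed, and 17 were lower and 2 higher in *Mll1KO*, with a median log2 fold change of -0.09. Over all genes 23.3% passed the threshold, 14.5% lower and 8.81% higher, with a median of -0.03. The balance of directions depended on the scaling: 37.8% of all called genes were higher with the deposited scaling, 51.9% with TMM, 52.7% with upper-quartile and 53.1% with RLE factors, and 2.56% after rescaling by rod genes, which made 76 partner genes lower and 1 higher. For the partners TMM factors gave 15 lower and 6 higher. Without WT sample b the partner count was 12 and the count of all genes 1704, and without *Mll1KO* sample c the count of all genes was 1757. Of the other alpha and beta tubulin genes only *Tubb6* was listed of 7, at a mean of 3.90 RPKM in WT and 3.35 RPKM in *Mll1KO* (log2 fold change -0.17, limma adjusted p = 0.17), while *Tuba1c*, *Tuba8*, *Tuba3a*, *Tuba3b*, *Tubal3* and *Tubb1* were not listed.

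Microtubule nucleation genes, the gamma tubulins and their ring complex together with epsilon tubulin, gave 1 lower gene of 11 listed. This was *Tube1*, the epsilon tubulin of centrioles, at 12.6 ± 0.413 RPKM (SD, n = 3) in WT and 10.5 ± 0.791 in *Mll1KO* (log2 fold change -0.24, limma adjusted p = 0.0161). Tubulin folding, by the prefoldin and CCT chaperonin complexes and the tubulin cofactors, also gave 1 lower gene of 19 listed and a median of -0.04, close to that of all genes, and TMM factors added 1 higher gene. It was the chaperonin subunit *Cct2*, at 60.4 ± 1.31 RPKM in WT and 53.6 ± 1.27 in *Mll1KO* (log2 fold change -0.17, limma adjusted p = 0.0113). Both calls were lost without WT sample b, where the log2 fold changes were -0.23 for *Tube1* and -0.15 for *Cct2*.

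Of 18 listed enzymes that modify tubulin, 5 were lower and 1 higher, with a median of -0.14. The count of lower genes was 3 with TMM, RLE or upper-quartile factors, and also 3 without WT sample a, b or c or without *Mll1KO* sample b. *Vash1*, which removes the tyrosine at the end of alpha tubulin, was at 29.6 ± 0.504 RPKM (SD, n = 3) in WT and 23.6 ± 0.927 in *Mll1KO* (log2 fold change -0.32, limma adjusted p = 0.000779). *Atat1*, the alpha tubulin acetyltransferase, fell by 0.31 on the log2 scale (limma adjusted p = 0.00843) and *Sirt2*, a deacetylase of tubulin among other proteins, by 0.23 (limma adjusted p = 0.00288). *Ttll11*, a polyglutamylase of the tubulin tyrosine ligase-like family, was at 2.61, 2.71 and 3.14 RPKM in WT and 4.99, 4.63 and 4.44 RPKM in *Mll1KO*. It rose to 166.3% of WT (log2 fold change 0.58, limma adjusted p = 0.000368). The log2 fold change of *Ttll11* was 0.31 with a pseudocount of 5, 0.35 after rescaling by rod genes and 0.75 by limma-voom on recovered reads. Relative to the median of all genes it was at 0.61 as deposited and 0.63 after that rescaling.

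Of 26 listed microtubule-associated proteins, 8 were lower and 1 higher, with a median of -0.10. The higher genes numbered 4, beside 8 lower, with TMM, RLE or upper-quartile factors and with limma-voom on recovered reads, and 2 without WT sample a. The lower ones included *Dcx* (doublecortin), which marks young neurons, at 57.9% of WT (log2 fold change -0.46, limma adjusted p = 0.000828). With group means of 1.87 and 1.09 RPKM its log2 fold change depended on the pseudocount, with -0.73 for 0.1, -0.18 for 5 and -0.79 by limma-voom on recovered reads. *Map6*, which stabilises neuronal microtubules, was at 77.8% of WT (log2 fold change -0.35, limma adjusted p = 0.000589) and *Map7*, a cofactor of kinesin, at 82.5% (log2 fold change -0.27, limma adjusted p = 0.00152). *Dclk1*, a doublecortin-like kinase, was higher at 121.5% of WT (log2 fold change 0.25, limma adjusted p = 0.0058), and its log2 fold change was -0.01 after rescaling by rod genes. Relative to the median of all genes it was at 0.28 as deposited and 0.28 after that rescaling. Among 9 listed stathmins and severing enzymes, which take microtubules apart or bind free tubulin, *Stmn2* was lower at 74.3% of WT (log2 fold change -0.42, limma adjusted p = 0.000115) and *Stmn1* at 69.6% (log2 fold change -0.40, limma adjusted p = 0.0323). The call of *Stmn1* was lost with RLE factors (log2 fold change -0.38) and without WT sample a (-0.27), WT sample b (-0.42) or *Mll1KO* sample c (-0.32).

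**Figure D4:**
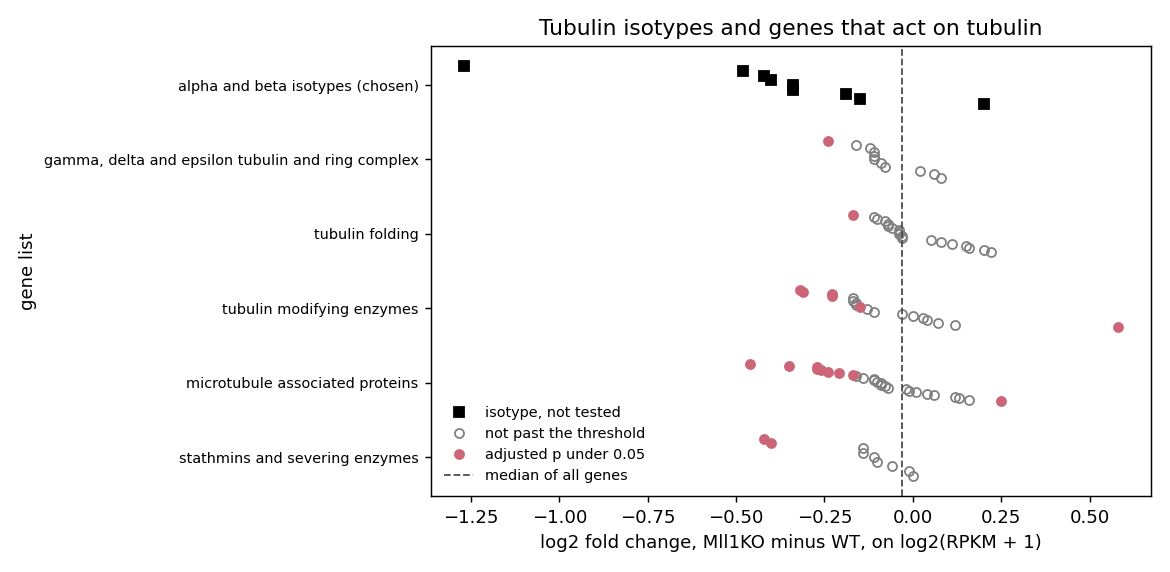
Log2 fold change (*Mll1KO* minus WT, on log2(RPKM + 1)) of each isotype as black squares, which were chosen and not tested, and of each partner gene as circles, filled where limma's adjusted p was under 0.05, with a dashed line at the median of all genes. Lower calls outnumber higher ones among the 84 partner genes, 17 against 2 with the deposited scaling and 15 against 6 with TMM factors. Over all genes 14.5% were called lower and 8.81% higher with the deposited scaling, and with TMM factors 51.9% of all called genes were higher.

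Several marker lists of retinal cell types were lower alongside the isotypes. Of 10 listed genes of immature neurons other than *Tubb3*, 10 were lower, with a summed level of 385.9, 391.5 and 389.6 RPKM in WT and 287.2, 289.4 and 300.0 RPKM in *Mll1KO*, or 75.1% of WT. *Dpysl3* was the most abundant of them, at 84.1 RPKM in WT and 72.2 RPKM in *Mll1KO*, and *Sox11* was not listed. Of 17 listed ganglion cell genes 15 were lower, summing to 731.4, 692.0 and 724.6 RPKM in WT and 573.5, 516.7 and 485.6 RPKM in *Mll1KO*, or 73.4% of WT, with *Sncg* the most abundant and *Pou4f3* not listed. Horizontal cell genes were lower in 9 of 10, with sums of 363.0, 356.0 and 347.9 RPKM in WT and 244.8, 243.6 and 249.1 RPKM in *Mll1KO* (69.1% of WT), *Nefl* being the most abundant and *Lhx1* and *Gja10* not listed. These sums stood at 69.1% to 75.1% of WT, beside 75.8% for the beta and 77.0% for the alpha isotypes. They were not the only lists in this range. The vascular list stood at 77.6% and the pigment epithelium list, which varied widely between samples, at 69.5%. The bipolar list stood at 85.9%, and the remaining cell type lists were higher. The lists share genes with each other, *Nefl* and *Gap43* among them. *Dcx*, *Stmn1* and *Stmn2* of the immature neuron list also stand in the partner lists above, so their calls there and here are the same observations. The part of the marker lists in the isotype levels was not tested.

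Rod genes went the other way, 13 of 19 higher and 1 lower, with sums of 20100.1, 19202.3 and 19681.0 RPKM in WT and 24003.5, 24473.9 and 23771.5 RPKM in *Mll1KO*. Cone genes were higher in 7 of 13 and lower in 1, with a summed level at 112.3% of WT, *Gnb3* the most abundant and *Gucy2d* not listed. Müller glia genes were higher in 7 and lower in 3 of 16, at 122.7% of WT, led by *Glul*, and astrocyte genes were higher in 3 of 6, at 120.3%, led by *Slc1a2*, with *Pax2* not listed. Bipolar cell genes were lower in 10 of 19, at 85.9% of WT. Amacrine genes were mixed, 4 higher and 7 lower of 17, at 97.2% and led by *Calb2*, with *Th* not listed. *Calb2* was at 255 RPKM in WT and 180 RPKM in *Mll1KO*, while the median log2 fold change of the amacrine list was 0.07. The amacrine counts were 7 higher and 7 lower with TMM, RLE or upper-quartile factors. Vascular genes were higher in 2 and lower in 3 of 8, at 77.6% and led by *Kdr*, and microglial genes higher in 1 of 4, at 106.4%, with *P2ry12*, *Aif1*, *Tmem119* and *C1qa* not listed. After rescaling by rod genes the higher and lower counts were 1 and 6 for rod, 3 and 5 for cone, 5 and 9 for Müller glia, 2 and 2 for astrocyte and 1 and 6 for vascular genes. It made 19 of 19 bipolar, 10 of 17 amacrine and 2 of 4 microglial genes lower, and the 4 amacrine and 1 microglial calls of higher genes were lost. The medians of the rod, Müller glia, amacrine and microglia lists were at -0.06, -0.18, -0.20 and -0.17. Relative to the median of all genes they were at 0.26, 0.13, 0.10 and 0.08 as deposited and at 0.23, 0.11, 0.09 and 0.12 after it. RPKM is relative to the library total, of which rod transcripts took a larger part in *Mll1KO*, and their part in the isotype levels was not tested.

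Of 11 progenitor and mitotic genes 3 were listed, with summed levels of 18.5 to 19.3 RPKM in WT and 18.2 to 20.5 RPKM in *Mll1KO*. They were led by *Pcna* at 9.11 RPKM in WT and 8.44 RPKM in *Mll1KO*. *Mki67*, *Top2a*, *Ccnb1*, *Cdk1*, *Mcm3*, *Fgf15*, *Sfrp2* and *Birc5* were not listed, and the number of dividing cells was not tested. Genes of tissue next to the retina varied widely between samples of the same genotype. The 4 listed pigment epithelium genes summed to 169.9, 99.3 and 248.1 RPKM in WT and 88.4, 179.8 and 91.4 RPKM in *Mll1KO*, led by *Ttr*, with *Rpe65*, *Tyr*, *Mlana* and *Best1* not listed. Of 8 lens genes only *Cryaa* was listed, at 6.5, 6.6 and 7.5 RPKM in WT and 32.1, 12.4 and 7.3 RPKM in *Mll1KO*, and *Crygs*, *Crybb1*, *Crybb2*, *Crygd*, *Mip*, *Bfsp1* and *Lim2* were not listed. The 4 listed erythroid genes summed to between 80.9 and 212.3 RPKM, led by *Hbb-bs*, with *Alas2* not listed, and the groups overlapped. None of the 4 was called, but without WT sample c all 4 were called higher. Their median log2 fold change was then 0.9 in place of 0.49.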

How the data were processed

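RNA from 6 retina samples, 3 *Mll1KO* and 3 WT, was sequenced as single reads of 50 bases. The authors aligned the reads with STAR 2.0.4b to a mouse build, mm10 in the submitters' processing notes, counted them per gene with featureCounts 1.45, kept genes that reached a CPM over 5 in 5 or more samples and deposited RPKM, scaled to gene length and library total. The deposited table also holds log2 fold changes, mean log2 CPM values and p-values of the authors' own comparison with edgeR, which were not used.

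The table had 11404 lines for 11339 genes; 59 gene IDs stood in more than 1 line with identical values, and 18 symbols turned into dates were restored from the IDs. Library totals and gene lengths were searched for until each gene gave whole reads within 0.05 reads, which 100% of genes did; 699 genes allowed more than 1 length. Each gene, all 9 isotypes included, had at least 90 reads in each library.

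Genotypes were compared with limma 3.58.1 (R 4.3.3) on log2(RPKM + 1), a pseudocount of 1, with a variance trend, and Benjamini-Hochberg adjustment over all 11339 genes at a threshold of 0.05. The procedure was tested on simulated data. With pooled retinas, p-values measure the spread between 3 pooled samples a group. The isotypes, the partner lists and the marker lists were chosen with earlier results of these data known. Named genes were the 9 isotypes, *Kmt2a*, the listed other tubulin genes, up to 3 called genes with the highest and 3 with the lowest log2 fold change in each partner list, the most abundant and the unlisted genes of each cell type list, of which some are not reported here, and the 5 genes most like *Tubb2b*. Other scalings, pseudocounts, limma-voom on recovered reads, a filter, the replicate letter and leaving out each library were tried as alternatives. Sequences and overlaps came from GENCODE vM21 and RefSeq, with Python 3.11.15, numpy 2.4.6, pandas 2.3.3, biopython 1.88 and matplotlib 3.10.9.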

Additional observations from a re-analysis of the deposited data

How the results depend on the processing

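Of the alternatives tried, rescaling each library to the same rod gene total had the largest effect on the number of calls. It gave 9528 called genes and 77 called partner genes, a *Tubb2b* log2 difference of -1.55, and log2 ratios of -0.69 for the summed beta and -0.67 for the summed alpha isotypes, and it turned *Tuba4a* to -0.08 and *Dclk1* to -0.01. By its construction it shifts all genes together, to a median of -0.29 from -0.03. TMM, RLE and upper-quartile factors each gave -0.37 for the beta sum. By their construction these factors also shift all genes together, to a median of 0.0 from -0.03. A pseudocount of 5 gave -1.05 for *Tubb2b*, 0.31 for *Ttll11*, -0.18 for *Dcx* and -0.22 for *Stmn1*, which by its construction draws low genes towards 0. With 1 library left out at a time, 1704 to 2536 genes and 12 to 21 partner genes were called, with fewer samples in the fit, and the *Tubb2b* difference ranged from -1.32 to -1.20. Dividing by the share of unique stretches changed the difference in share to -2.22 percentage points for *Tubb2b* and -3.77 for *Tuba1a*, and recovered reads in place of RPKM gave -8.31 for *Tuba1a*; both reweight the isotypes by a fixed factor each. In all, 389 of the values under alternatives were labelled the same, 21 moved, 6 calls were lost, 1 was gained and 2 signs turned. For a value, the same meant within the spread between replicates or on the same side of the threshold. For a count of calls it meant within a set fold of the main count. Some of the 389 could not change, since the filter and the replicate letter leave the log2 fold change of a gene as it is. No further alpha tubulin gene was listed, so widening the alpha sum could not be run. A *Tubb2b* value rests on 419 reads or more, for which the counting error alone is 4.89%. The coefficient of variation of *Tubb2b* between WT samples was 9.09%.

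The labels give the replicate letters without saying that they pair the samples. The deviations of samples with the same letter correlated at -0.039, -0.19 and -0.007, and those of samples with different letters at -0.092 to 0.132. Centring on the group means ties these values to each other, so they cannot decide whether the samples are paired. With the letter as a replicate block, 2242 genes and 19 partner genes were called. Both genotypes have the letters a, b and c, so by its construction the block leaves a difference between genotype means unchanged. The *Tubb2b* difference was thus -1.27, and the share differences were -1.74 percentage points for *Tubb2b* and -5.76 for *Tuba1a*. The log2 ratios of the sums were -0.40 for beta and -0.37 for alpha isotypes.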
